A study of Mus musculus with 40 samples.

Results

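Lipoprotein lipase, encoded by Lpl, and 6 genes that act with it or on the same particles (Gpihbp1, Lmf1, Vldlr, Apob, Apoe and Mttp) were examined in the kidney cortex of 40 male mice. The 7 genes were taken from the gene count table by symbol, out of 55401 genes. They had been chosen by measured values of these data. The earlier results in view included the genotype differences on both vehicles, and which others were in view was not recorded. Differences between genotypes on both vehicles are given as a description with no p-value. Those in the drug-treated mice are given with their test, but they may have been in view too, so that their p-values are not independent support. RNA was sequenced after depletion of ribosomal RNA, with each library made from the cortex of 1 mouse. All mice had the C57BL/6J strain background. The protocol describes daily oral gavage from 6 to 22 weeks of age with ethanol vehicle or MitoGamide, and does not describe the dosing of the water and MitoQ groups. Akita mice were heterozygous for Ins2-Akita, a mutated insulin gene that leads to diabetes from a lack of insulin, and WT mice were their non-diabetic littermates. Each genotype had 5 mice on ethanol vehicle (10% ethanol in water), 5 on MitoGamide at 10 mg/kg daily, labelled as given in ethanol vehicle, 5 on water vehicle and 5 on MitoQ, labelled as given in water vehicle. MitoGamide is a mitochondria-targeted compound made to trap reactive dicarbonyls such as methylglyoxal, and MitoQ is a mitochondria-targeted antioxidant whose dose the labels do not give. In each group all mice carried the same Ins2 genotype, so diabetes and the Akita allele cannot be told apart.

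Triglycerides travel in blood inside lipoproteins, namely chylomicrons from the gut and very low density lipoprotein (VLDL) from the liver. LPL is secreted by parenchymal cells, above all fat and muscle, and is carried by GPIHBP1 across the capillary endothelium to the vessel lumen, where it hydrolyses these triglycerides into fatty acids for the tissue. LMF1 is a protein of the endoplasmic reticulum that LPL needs to fold. VLDLR binds lipoproteins that carry apolipoprotein E, and it lies near LPL at the capillary wall. Apolipoprotein B, the backbone of VLDL and chylomicrons, is loaded with lipid by the microsomal triglyceride transfer protein, the product of Mttp. Insulin is a known regulator of LPL in fat.

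Libraries held between 9106654 and 24321424 estimated counts, and levels are given in CPM, counts scaled to a common library size with trimmed mean of M values (TMM) over the 40 libraries. The profiles of 9 libraries stood apart, with a median Spearman correlation with the other 39 libraries between 0.905 and 0.958, against between 0.963 and 0.980 in the rest. They were replicates 2, 3 and 5 of Akita water, 2, 3 and 4 of WT water, 4 of Akita MitoQ, 3 of WT MitoQ and 5 of Akita MitoGamide. Of these, 8 lay in the water and MitoQ groups and 0 in the ethanol vehicle groups. Across the 40 libraries, the log2 level of Vldlr had a Pearson correlation of 0.86 with the median Spearman correlation of the library, Apob 0.62, Mttp 0.59, Gpihbp1 0.27, Lpl 0.13, Apoe -0.15 and Lmf1 -0.43. For Lpl this value also holds the gap between genotypes. Within groups, the libraries that stood apart had less Lpl than all the others in WT water (326 to 388 against 400.5 to 546 CPM), WT MitoQ (369.6 against 433 to 511 CPM), Akita MitoQ (52.3 against 120.4 to 189 CPM) and Akita MitoGamide, whereas in Akita water they overlapped the others (60.3 to 112 against 68.6 to 85.2 CPM). These values are a description, since the libraries share tissue and processing. The labelled tissue carried its defining markers: the summed level of 8 proximal tubule markers was between 9063 and 18140 CPM in all 40 libraries.

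The 7 genes covered a wide range of levels. Levels were also divided by the kilobases of exon of each gene, taken over all its annotated transcripts together. On this scale the median over 40 libraries was highest for Apob (44.7 CPM per kb), followed by Lpl (24.6), Apoe (23.9), Vldlr (8.79), Mttp (3.83), Gpihbp1 (1.64) and Lmf1 (1.22). The divisor was 13934 bases for Apob, 10478 for Lpl (5 transcripts) and 13589 for Lmf1 (10 transcripts). Where the expressed transcript is shorter than this total, the value is too low. The order therefore depends on the divisor and is not an order of transcript number. The ranges of Lpl (4.99 to 55.1 CPM per kb) and Apoe (15.7 to 59.6) overlapped over most of their length, and those of Gpihbp1 (0.789 to 6.64) and Lmf1 (0.905 to 1.58) overlapped as well. Gpihbp1 rested on between 16 and 205 counts per library and Lpl on between 529 and 9498. The median spread within a group, as a coefficient of variation, was 9.45% for Lmf1, 16.8% for Lpl, 22.6% for Gpihbp1 and 30.4% for Apob.

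Lpl (ENSMUSG00000015568.16) lies on the forward strand of chromosome 8 of GRCm38, from 68880491 to 68907448, with 5 annotated transcripts and no overlapping gene. In WT mice on ethanol vehicle the levels were 378, 408, 441, 519.9 and 577 CPM, and in Akita mice on the same vehicle they were 99.0, 106, 107, 109.5 and 114 CPM. The Akita values lay within a narrow band far below the lowest WT value. On water vehicle they were 326, 349, 388, 400.5 and 546 CPM in WT mice and 60.3, 68.6, 76.5, 85.2 and 112 CPM in Akita mice. Again the groups did not overlap, with all Akita values below, as in 1.61% of all genes on water vehicle and 6.52% on ethanol vehicle. The log2 fold change of Akita against WT mice was -2.10 (standard error 0.11) on ethanol vehicle and -2.32 (standard error 0.22) on water vehicle, and -2.64 on water vehicle without the 6 libraries that stood apart there. These vehicle values are a description.

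**Figure D1:**
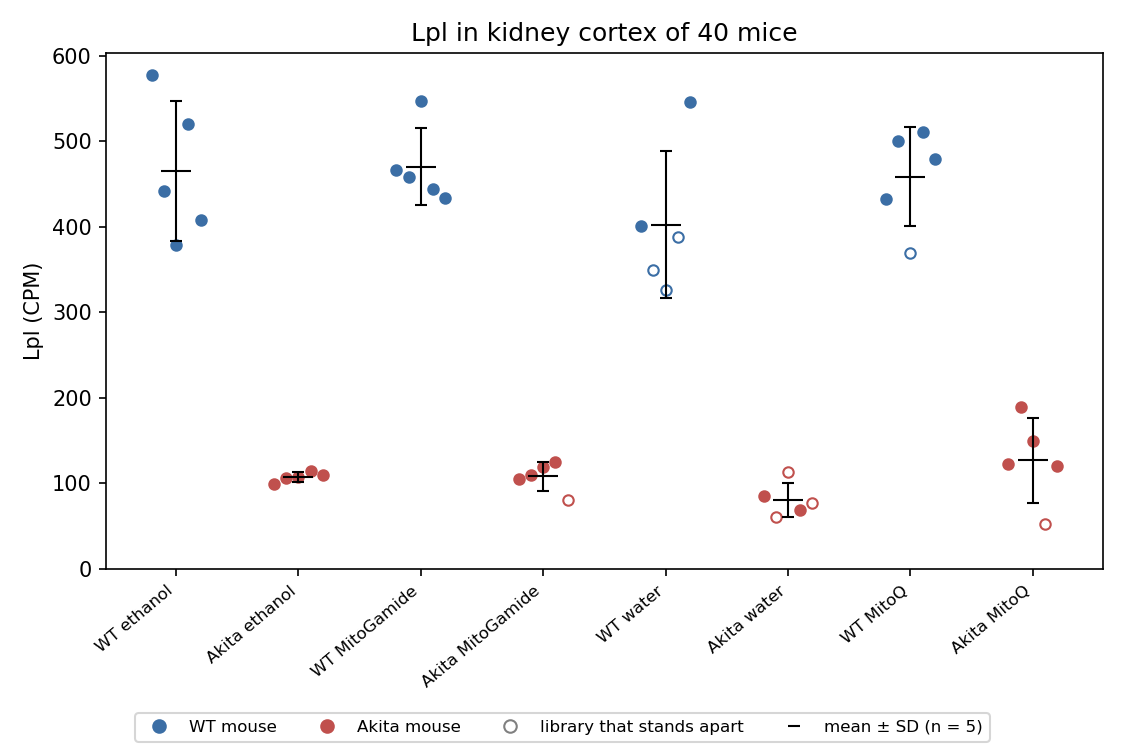
Level of Lpl (CPM, vertical axis) in each of the 40 mice by group, with the mean and SD of 5 mice in black and open circles for libraries that stood apart. All 20 Akita mice lie between 52.3 and 189 CPM, below all 20 WT mice, which lie between 326 and 577 CPM.

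Lpl was also low in the Akita mice given a drug. With MitoGamide, WT mice had 434, 444, 458, 466 and 547 CPM and Akita mice had 80.6, 105, 109.2, 119 and 125 CPM. With MitoQ, WT mice had 369.6, 433, 479, 499.9 and 511 CPM and Akita mice had 52.3, 120.4, 122, 149 and 189 CPM. In both pairs the lowest WT mouse was above the highest Akita mouse. The Akita mice with MitoQ were the most spread of the 8 groups relative to their mean (127 ± 50.02 CPM, SD, n = 5).

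The log2 fold change of Lpl between genotypes was -2.09 with MitoGamide (standard error 0.13, 95% interval -2.36 to -1.81, adjusted p = 6.588e-06 by the quasi-likelihood test of edgeR), a level 4.25-fold lower. With MitoQ it was -1.85 (standard error 0.28, 95% interval -2.45 to -1.25, adjusted p = 0.0103 by the same test of edgeR), a level 3.61-fold lower. Of all tested genes, 14.3% were called with MitoGamide (6.6% as lower) and 0.557% with MitoQ (0.292% as lower), where a call is a Benjamini-Hochberg adjusted p under 0.05. Groups that did not overlap with the Akita values below were seen in 5.97% and 1.45% of the tested genes. Leaving out each library in turn kept the call in 10 of 10 fits with MitoGamide (between -2.15 and -1.997) and in 9 of 10 with MitoQ (between -2.05 and -1.65). The exception was without Akita MitoQ replicate 5, with -1.84 and an adjusted p of 0.0511 by edgeR. Without the libraries that stood apart, the values were -1.997 (adjusted p = 5.324e-07) and -1.73 (adjusted p = 0.00062 by edgeR).

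The order of the 8 group means of Lpl had all WT groups first, with MitoGamide (469.7 ± 45.0 CPM), ethanol vehicle (465 ± 82.0), MitoQ (458 ± 57.9) and water vehicle (402 ± 85.9). The Akita groups followed, with MitoQ (127 ± 50.02), MitoGamide (108 ± 17.2), ethanol vehicle (107 ± 5.54) and water vehicle (80.6 ± 20.03; SD, n = 5 each). Neighbours within a genotype differed by less than the larger of their SDs, apart from Akita ethanol vehicle and Akita water vehicle, whose means differed by more than either SD while their ranges overlapped. Only the step from WT water vehicle to Akita MitoQ had no overlap between neighbours.

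Gpihbp1 (ENSMUSG00000022579.10, chromosome 15, 75596628 to 75599481, forward strand), whose product carries LPL through endothelial cells, was higher in Akita mice with MitoGamide. With MitoGamide it was at 3.67, 4.15, 4.38, 4.62 and 7.46 CPM in WT mice and at 6.66, 6.94, 8.36, 10.4 and 17.0 CPM in Akita mice. A single WT mouse overlapped the Akita range. Between genotypes it differed by 1.02 on the log2 scale (standard error 0.27, adjusted p = 0.0273 by the quasi-likelihood test of edgeR, 2.03-fold higher), and 0.75 (adjusted p = 0.0286 by edgeR) without replicate 5 of the Akita group, which had the highest value and stood apart. The call was kept in 6 of 10 fits that left out 1 library, and it was lost without WT MitoGamide replicate 1, 2, 3 or 4 (adjusted p between 0.0624 and 0.0708 by edgeR). With MitoQ, WT mice were at 2.98, 3.08, 3.18, 3.44 and 3.46 CPM and Akita mice at 3.11, 4.02, 4.22, 5.23 and 8.004 CPM. Akita mice were higher on the whole but overlapped, and the log2 fold change of 0.61 (95% interval 0.10 to 1.13, adjusted p = 0.417 by edgeR, and 0.76 without the libraries that stood apart) did not pass. On the vehicles the log2 fold change was 0.24 with ethanol and 0.48 with water. Leaving out 1 library moved it between 0.16 and 0.37 on ethanol vehicle and between 0.37 and 0.75 with MitoQ.

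The summed level of 8 endothelial markers (Pecam1, Cdh5 and others, all detected in every library) differed in the direction of Gpihbp1 with MitoGamide, without passing the test. It was between 349 and 589.6 CPM in WT mice and between 443 and 642 CPM in Akita mice, a log2 difference of 0.41 (exact two-sided permutation test, p = 0.0635, adjusted p = 0.175 over 22 such tests, in which 0.00794 is the smallest p possible). With MitoQ the log2 difference of this sum was 0.05 (exact permutation p = 0.730), and its members did not all go one way. There the median of Kdr was 84.2 CPM in WT and 74.0 CPM in Akita mice, and that of Emcn 32.8 and 26.6 CPM. Plvap had 69.0 and 84.7 CPM, and Pecam1 39.96 and 44.3 CPM. The part of the endothelial markers in the level of Gpihbp1 was not tested. In bulk tissue, fewer cells of a type and less RNA per cell cannot be told apart.

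Lmf1 (ENSMUSG00000002279.19, chromosome 17, 25579085 to 25662826, forward strand), the folding factor of LPL, was the steadiest of the 7 genes and lay between 12.3 and 21.4 CPM in all mice. Its log2 fold change between genotypes was 0.09 with MitoGamide (95% interval -0.12 to 0.30, adjusted p = 0.557 by edgeR) and 0.03 with MitoQ (95% interval -0.23 to 0.28, adjusted p = 0.993). On the vehicles it was 0.12 with ethanol and -0.12 with water.

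**Figure D2:**
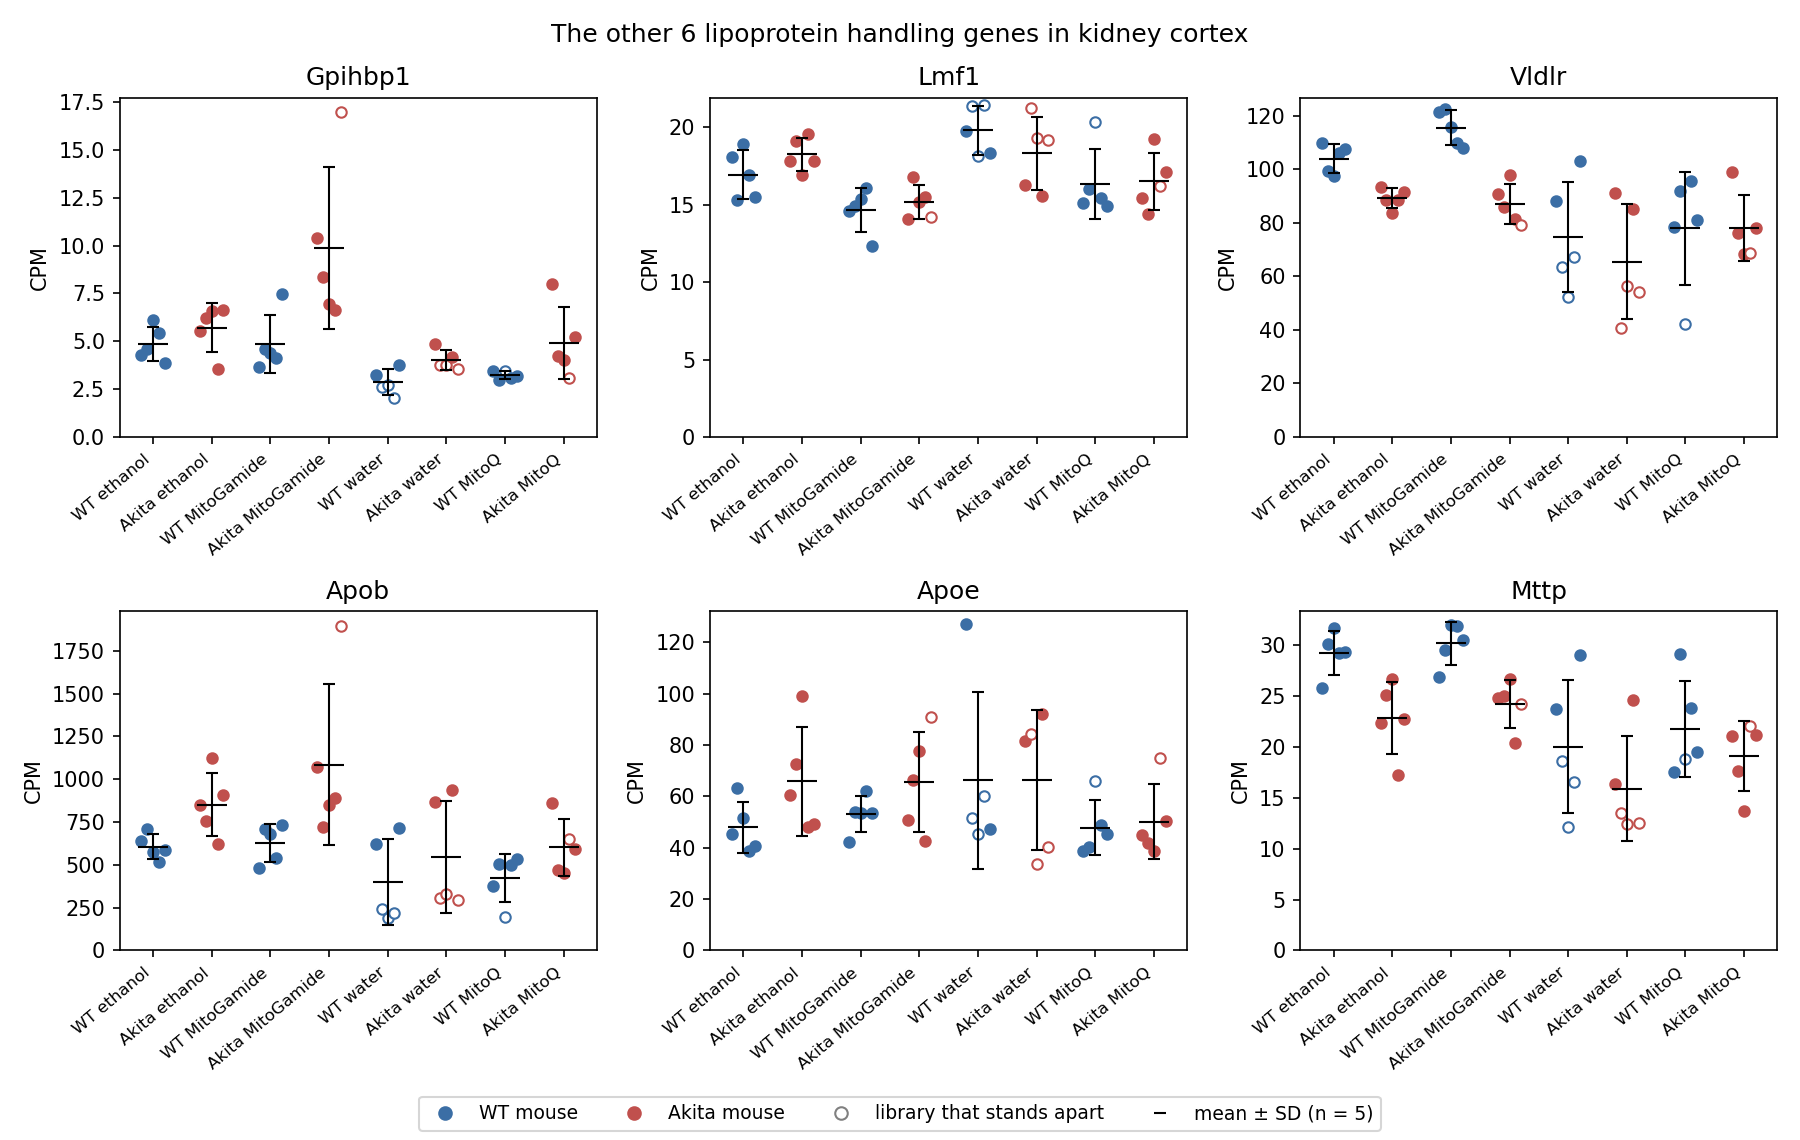
Level (CPM, vertical axis, a scale of its own in each panel) of Gpihbp1, Lmf1, Vldlr, Apob, Apoe and Mttp in the 40 mice by group, with mean and SD of 5 mice in black and open circles for libraries that stood apart. In the water vehicle groups the open circles lie between 191 and 332 CPM for Apob, whereas the other mice of these groups lie between 621 and 935 CPM.

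Vldlr, the receptor, and Apob, the backbone of VLDL, differed in opposite directions between genotypes with MitoGamide, and the 200 bases that end 50 bases before their RefSeq transcription start are shown for this reason. The sequences are from RefSeq (GRCm38.p6), 5′ to 3′ on the forward strand, which is the strand of both genes. The window of Apob is chr12:7977427-7977626 and that of Vldlr is chr19:27216234-27216433, and neither holds exon bases. Capitals mark a TATA box (TATAAA), found once in Apob, 60 bases before the RefSeq start. The GENCODE start of Apob, 7977648, lies nearer to the window than the RefSeq start, so the distance to it is shorter.
Apob: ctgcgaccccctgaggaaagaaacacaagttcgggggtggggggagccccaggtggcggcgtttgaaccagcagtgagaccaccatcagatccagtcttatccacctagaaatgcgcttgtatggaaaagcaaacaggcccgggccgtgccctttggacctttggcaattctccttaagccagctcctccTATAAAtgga
Vldlr: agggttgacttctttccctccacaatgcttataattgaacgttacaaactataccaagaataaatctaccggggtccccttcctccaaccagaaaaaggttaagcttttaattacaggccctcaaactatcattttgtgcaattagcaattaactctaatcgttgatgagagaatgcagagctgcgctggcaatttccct
On both strands, 5 motifs were searched, namely TATAAA, the GC box GGGCGG, the nuclear receptor site AGGTCA, the CCAAT box CCAAT and the E box CACGTG. In windows of the same place and length over all 32851 promoters of the table, 9.14% held TATAAA, 24.6% GGGCGG, 11.4% AGGTCA, 28.4% CCAAT and 4.34% CACGTG. The Vldlr window held 0 of the 5 motifs and the Apob window held only the TATA box. Of the 7 genes, 5 had an entry in the promoter table, and among the other 3 of these the window of Lmf1 held 1 GC box.

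Vldlr (ENSMUSG00000024924.14, chromosome 19, 27216484 to 27254231, forward strand) was at 108, 109.9, 116, 121 and 122.5 CPM in WT mice with MitoGamide and at 79.3, 81.4, 85.8, 90.7 and 97.7 CPM in Akita mice. All Akita values lay below all WT values, as in 5.97% of the tested genes. The log2 fold change was -0.37 (standard error 0.08, 95% interval -0.54 to -0.21, adjusted p = 0.0100 by the quasi-likelihood test of edgeR), a level 1.3-fold lower, and the call was kept in 10 of 10 fits that left out 1 library. It was lost with all 40 libraries in one fit (-0.41, adjusted p = 0.126 by edgeR). On ethanol vehicle the log2 fold change was -0.20 and the groups did not overlap either. On water vehicle it was -0.19, and -0.14 without the 6 libraries that stood apart, which lay between 40.8 and 67.1 CPM against between 85.3 and 103 CPM in the rest. Leaving out 1 library there moved it between -0.34 (without Akita water replicate 1) and -0.01 (without WT water replicate 5). With MitoQ, WT mice were at 42.4, 78.5, 81.1, 92.0 and 95.6 CPM and Akita mice at 68.3, 68.7, 76.3, 78.2 and 98.9 CPM. The groups overlapped, with a log2 fold change of -0.00 (95% interval -0.44 to 0.44, adjusted p = 1.00 by edgeR). The mouse at 42.4 CPM was WT MitoQ replicate 3, a library that stood apart. The value was -0.16 without it and -0.11 (adjusted p = 0.884 by edgeR) without both libraries that stood apart. The difference of the genotype effects between MitoGamide and MitoQ was -0.37 (95% interval -0.83 to 0.09, adjusted p = 0.882 by edgeR), so that the effects were not shown to differ.

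Apob (ENSMUSG00000020609.14, chromosome 12, 7977648 to 8016835, forward strand) was at 483, 538, 683, 711 and 732 CPM in WT mice with MitoGamide and at 720.0, 851.5, 887.5, 1074 and 1892 CPM in Akita mice. Only the lowest Akita mouse fell into the WT range. On the log2 scale Akita mice were higher by 0.81 (standard error 0.23, adjusted p = 0.0370 by the quasi-likelihood test of edgeR, 1.75-fold higher). Without Akita MitoGamide replicate 5, the mouse at 1892 CPM, it was 0.52 and still called (adjusted p = 0.0265 by edgeR). The call was kept in 5 of 10 fits without 1 library and lost without Akita MitoGamide replicate 1 or WT MitoGamide replicate 1, 2, 3 or 4 (adjusted p between 0.0521 and 0.0915), and also with all 40 libraries in one fit (0.79, adjusted p = 0.132 by edgeR). With MitoQ it was at 195, 376, 502, 507 and 535 CPM in WT mice and at 450.1, 467, 590.5, 649 and 859 CPM in Akita mice. These overlapped, with a log2 fold change of 0.51 (95% interval -0.09 to 1.10, adjusted p = 0.674 by edgeR), and 0.30 without the libraries that stood apart. On ethanol vehicle Apob was at 519, 572, 589, 639.9 and 708 CPM in WT mice and at 624, 755, 849, 908 and 1122 CPM in Akita mice, with a log2 fold change of 0.51. On water vehicle it was at 191, 219, 241, 621 and 717 CPM in WT mice and at 294, 304, 332, 869 and 935 CPM in Akita mice, with 0.46. In both genotypes on water the 3 lowest mice were the libraries that stood apart, and without them the difference was 0.41. Leaving out 1 library on water vehicle moved the difference of Apob between 0.17 and 0.81.

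Mttp (ENSMUSG00000028158.14, chromosome 3, 138089854 to 138144968, reverse strand), which loads lipid onto apolipoprotein B, did not pass the test between genotypes with MitoGamide, at an adjusted p that rounds to the threshold. WT mice were at 26.9, 29.5, 30.5, 31.8 and 31.9 CPM and Akita mice at 20.3, 24.2, 24.7, 24.97 and 26.6 CPM, so that the ranges did not meet on this scale, while they overlapped when scaled over the 10 libraries of the contrast alone. The log2 fold change was -0.28 (standard error 0.09, adjusted p = 0.05003 by edgeR). It passed with DESeq2 (adjusted p = 0.0214), RLE scaling (0.0437), the stricter filter (0.0330) and without Akita MitoGamide replicate 5, which stood apart (0.0481), in all in 3 of 10 fits that left out 1 library, and did not pass with no filter (0.129), the replicate block (0.0762) or all 40 libraries in one fit (0.258). Mttp overlaps Trmt10a and the antisense gene Gm43691. With MitoQ the log2 fold change was -0.19 (95% interval -0.56 to 0.18, adjusted p = 0.883 by edgeR), and -0.29 without the libraries that stood apart. Leaving out 1 library moved it between -0.25 (without WT MitoQ replicate 1) and -0.05 (without WT MitoQ replicate 2). Apoe (ENSMUSG00000002985.16, chromosome 7, 19696109 to 19699188, reverse strand), the ligand that lipoprotein receptors bind, differed by 0.34 with MitoGamide (95% interval -0.05 to 0.72, adjusted p = 0.216 by edgeR) and by 0.08 with MitoQ (95% interval -0.33 to 0.49, adjusted p = 0.979). On the vehicles, Mttp differed by -0.34 with ethanol and -0.33 with water (-0.38 without the libraries that stood apart, and between -0.55 without Akita water replicate 4 and -0.12 without WT water replicate 5), and Apoe by 0.47 and 0.01, the last with a sign that changed with the scaling or filter. Leaving out 1 library moved Apoe between 0.20 and 0.45 with MitoGamide and between 0.28 and 0.59 on ethanol vehicle. The highest level of Apoe, 127 CPM, was in WT water replicate 1.

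Counted together, 4 of the 7 genes were called between genotypes with MitoGamide (Lpl and Vldlr lower, Gpihbp1 and Apob higher), against 14.3% of all tested genes (6.6% lower and 7.71% higher), and 1 with MitoQ (Lpl), against 0.557%. The genes were chosen with the genotype differences on the vehicles in view, and those in drug-treated mice may have been in view too. These counts and those on the vehicles are therefore no test, and nothing is read from them. On ethanol vehicle the count was 4 of 7, where 16.4% of all genes passed the threshold. On water vehicle it was 1 of 7, where 0.552% did. With all 40 libraries in one fit, 2 of the 7 genes were called with MitoGamide.

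**Figure D3:**
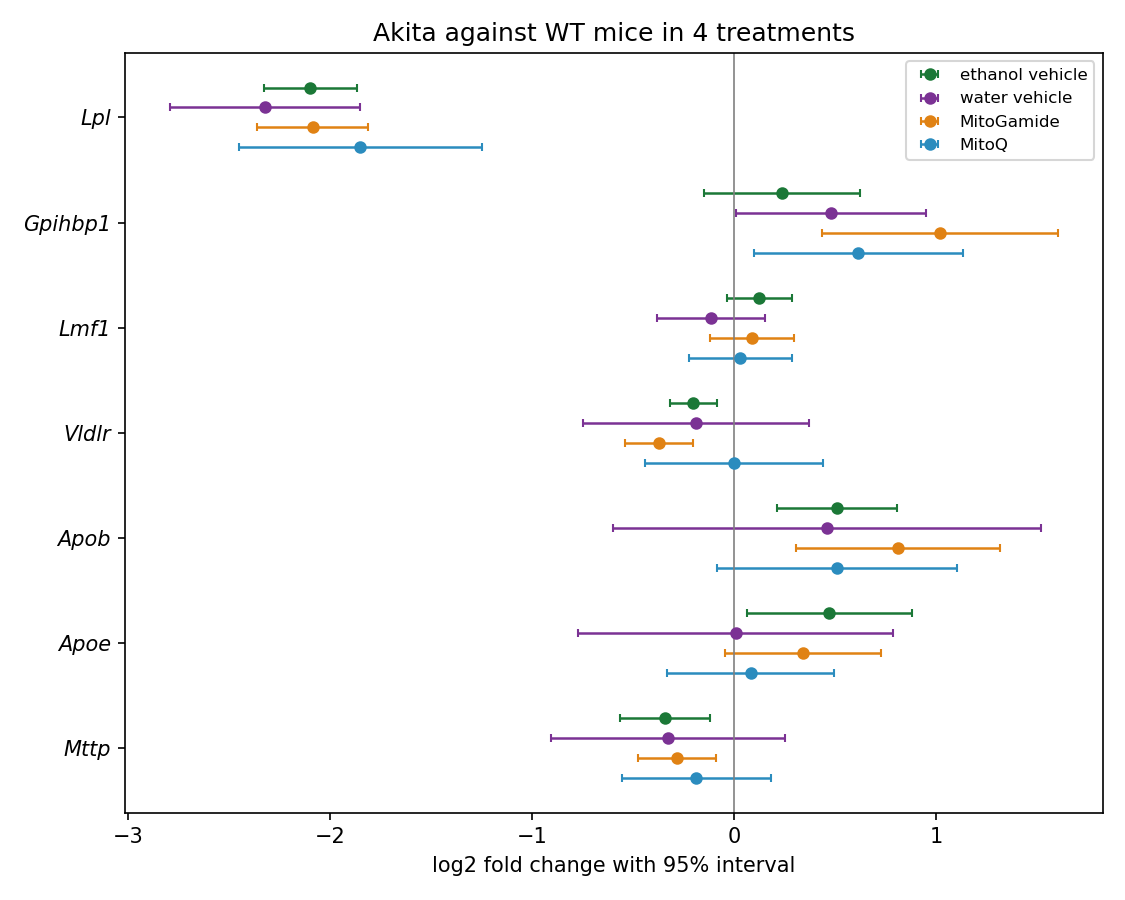
Log2 fold change of Akita against WT mice (horizontal axis) with its 95% interval for the 7 genes under each of 4 treatments, 5 mice in each group. Lpl lies between -2.32 and -1.85 in all 4, and the intervals of the other genes are widest on water vehicle for Lmf1, Vldlr, Apob, Apoe and Mttp.

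Neither drug moved Lpl by an amount that passed the test. With MitoGamide, Lpl differed from ethanol vehicle on the log2 scale by 0.02 in Akita mice (95% interval -0.22 to 0.27) and 0.01 in WT mice (95% interval -0.23 to 0.25), and the adjusted p was 0.938 and 0.984 by the quasi-likelihood test of edgeR. The direction of these values near 0 changed with the filter or the library left out. The difference of the genotype effect between MitoGamide and ethanol vehicle was 0.00 (95% interval -0.34 to 0.35, adjusted p = 0.998 by edgeR). With MitoQ, the log2 fold change against water vehicle was 0.66 in Akita mice (95% interval 0.04 to 1.27, unadjusted p = 0.0384, adjusted p = 0.999 by edgeR) and 0.19 in WT mice (95% interval -0.21 to 0.58, adjusted p = 1). Of the 5 Akita mice given MitoQ, 4 were above all Akita mice on water and 1, a library that stood apart, was below all of them. Without the libraries that stood apart, the value in Akita mice was 0.92 (adjusted p = 0.270 by edgeR). The difference of the genotype effect between MitoQ and water vehicle was 0.47 (95% interval -0.26 to 1.195, adjusted p = 1) and that between MitoGamide and MitoQ was -0.23 (95% interval -0.87 to 0.41, adjusted p = 0.971, both by edgeR). Without 1 library, the first lay between 0.28 and 0.66 and the second between -0.43 and -0.07.

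In Akita mice with MitoGamide, Gpihbp1 and Lmf1 did not overlap with the vehicle group, in opposite directions, but neither passed the test. Gpihbp1 was at 3.55, 5.55, 6.24, 6.57 and 6.64 CPM on ethanol vehicle and at 6.66, 6.94, 8.36, 10.4 and 17.0 CPM with MitoGamide, so that the lowest treated mouse was just above the highest vehicle mouse. The log2 fold change was 0.78 (standard error 0.25, adjusted p = 0.116 by the quasi-likelihood test of edgeR), which did not pass, whereas DESeq2 gave an adjusted p of 0.0446. Without Akita MitoGamide replicate 5 it was 0.52 (adjusted p = 0.116 by edgeR). The summed level of the 8 endothelial markers was between 367 and 422 CPM on ethanol vehicle and between 443 and 642 CPM with MitoGamide. These ranges did not overlap either, and replicate 5 with MitoGamide was highest in both Gpihbp1 and this sum. The part of the sum in the level of Gpihbp1 was not tested. Lmf1 was at 16.9, 17.8, 17.8, 19.1 and 19.6 CPM on ethanol vehicle and at 14.1, 14.2, 15.2, 15.5 and 16.8 CPM with MitoGamide. Here too the groups did not overlap, and the log2 fold change of -0.26 (95% interval -0.43 to -0.08, adjusted p = 0.108 by edgeR) did not pass. Groups without overlap were seen in 7.55% of all tested genes in this comparison and in 2 of the 7 genes. In WT mice with MitoGamide the log2 fold change was 0.01 for Gpihbp1 (95% interval -0.42 to 0.44) and -0.22 for Lmf1 (95% interval -0.41 to -0.03, adjusted p = 0.411 by edgeR). The difference of the MitoGamide effect on Gpihbp1 between genotypes was 0.77 (95% interval 0.05 to 1.49, unadjusted p = 0.0365, adjusted p = 0.593 by edgeR), so that it was not shown to differ.

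In the 4 comparisons of a drug with its vehicle, edgeR's quasi-likelihood test called 0 of the 7 genes. The percentage of all genes called was 1.26% for MitoGamide in Akita mice and 0% in the other 3. These 214 genes were between 0 and 4 without any 1 of the Akita ethanol libraries, 13, 101 and 30 without Akita MitoGamide replicates 2, 3 and 4, and 802 without replicate 5. At an unadjusted p under 0.05 there were 2 of the 7 genes for MitoGamide in Akita mice (20.9% of all genes), 2 in WT mice (10.6%), 1 for MitoQ in Akita mice (1.96%) and 1 in WT mice (3.22%), and DESeq2 called 1 in the first of these comparisons and 0 in the others. Over all tested genes, the unadjusted p was under 0.05 for 1841 genes with MitoGamide in WT mice, 363 with MitoQ in Akita mice and 575 with MitoQ in WT mice. Apoe was -0.40 with MitoQ in Akita mice (95% interval -1.03 to 0.22) and -0.97 without the libraries that stood apart (adjusted p = 0.0471 by edgeR). The last value rests on only 2 Akita mice on water (81.7 and 92.1 CPM) against 4 with MitoQ (38.9 to 50.5 CPM). The 3 water libraries left out lay between 33.6 and 84.2 CPM, and leaving them out was decided after seeing the data.

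**Figure D4:**
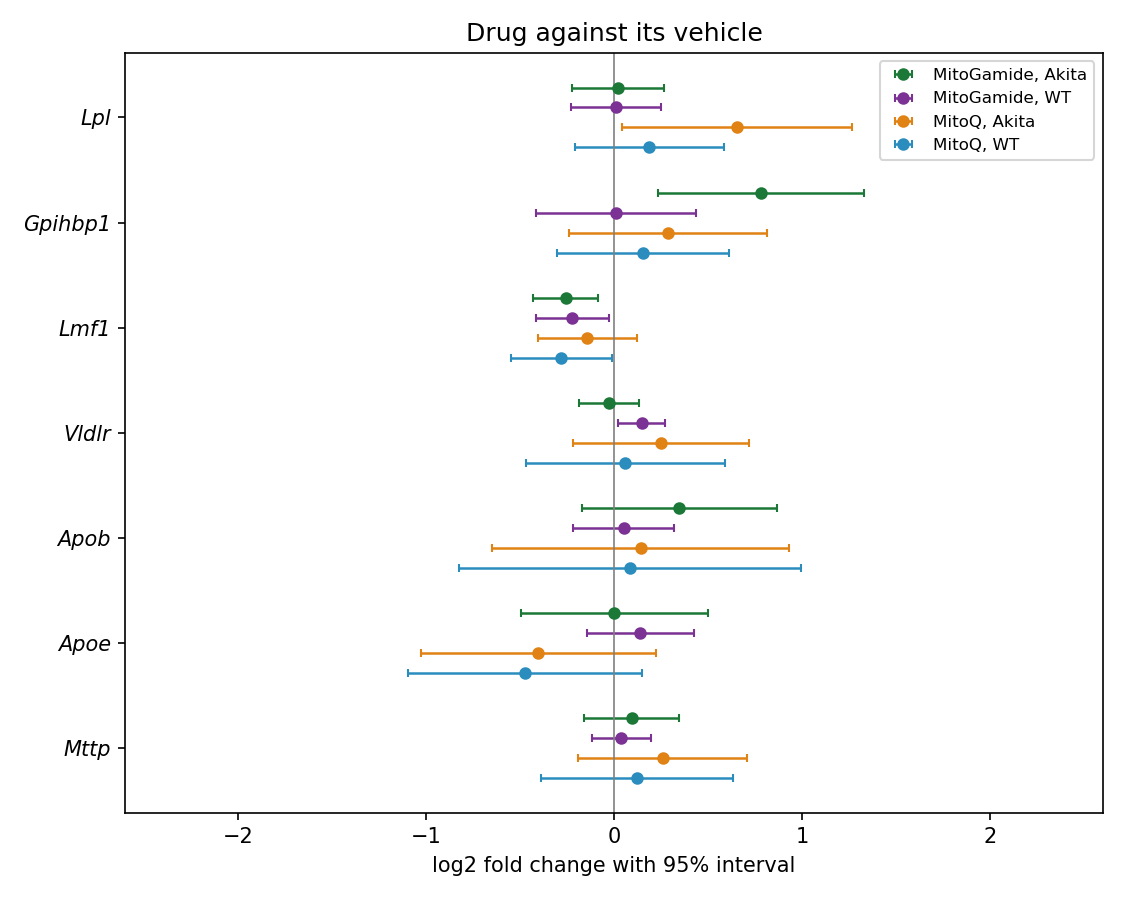
Log2 fold change of each drug against its vehicle (horizontal axis) with its 95% interval for the 7 genes in Akita and WT mice, 5 mice in each group. Lpl lies at 0.02 and 0.01 with MitoGamide and at 0.66 and 0.19 with MitoQ, and Gpihbp1 at 0.78 with MitoGamide in Akita mice.

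Ethanol and water vehicle were compared within each genotype, which is also the difference between both arms of the study, and the 2 cannot be told apart. Lpl was 0.42 higher on ethanol vehicle in Akita mice on the log2 scale (95% interval 0.08 to 0.76, adjusted p = 0.0763 by the quasi-likelihood test of edgeR, 0.0414 with DESeq2) and 0.22 in WT mice (95% interval -0.17 to 0.61, adjusted p = 0.408), where it was -0.02 without the libraries that stood apart. Gpihbp1 differed by 0.51 in Akita mice (adjusted p = 0.0743 by edgeR) and by 0.76 in WT mice, where all ethanol values were above all water values, as in 1.65% of all genes (adjusted p = 0.145), and by 0.35 and 0.49 without the libraries that stood apart. Apob differed by 0.66 in Akita mice (adjusted p = 0.171 by edgeR) and 0.61 in WT mice (adjusted p = 0.257), and by -0.07 and -0.13 without those libraries. In Akita mice, 12.7% of all genes were called and 0 of the 7. These 2283 calls over all genes were 6 without the libraries that stood apart, between 1 and 2 without Akita ethanol replicate 1, 2, 3 or 5 or Akita water replicate 3 or 5, 132 without Akita water replicate 2, 1178 without Akita ethanol replicate 4, and 6120 and 6496 without Akita water replicates 4 and 1. In WT mice edgeR called 0 of all genes (0%), with 4959 at an unadjusted p under 0.05, 725 called by DESeq2 and 5216 called without WT water replicate 5. The unadjusted p was under 0.05 for 4 of the 7 genes in Akita mice (39.7% of all genes) and 3 in WT mice (27.4%). DESeq2 called 2 of the 7 in Akita mice and 1 in WT mice, where it called 4264 and 725 of all genes.

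Cell types that make LPL were checked through their markers. Adipocyte markers other than Car3 were near 0 in most libraries, although their sum reached 26.3 CPM in 1 WT library and 17.3 CPM in 1 Akita library. Adipoq was at 0 in 21 of 40 libraries and reached at most 1.94 CPM, Lep was at 0 in 33, and Plin1 had a median of 0.25 CPM and Cidec of 0.12 CPM. With MitoGamide, the sum of the 8 adipocyte markers was carried by Car3, a carbonic anhydrase, which lay between 11.1 and 49.5 CPM in WT mice and between 1.32 and 6.17 CPM in Akita mice. The sum was between 12.2 and 50.9 CPM in WT and between 2.73 and 7.14 CPM in Akita mice with MitoGamide (log2 difference -2.69, exact permutation test, p = 0.00794, adjusted p = 0.0349), and without Car3 the means were 0.82 ± 0.46 and 0.81 ± 0.44 CPM (SD, n = 5). With MitoQ the log2 difference of the full sum was -1.36 (exact permutation p = 0.111), with ranges of 6.70 to 32.0 CPM in WT and 3.28 to 28.6 CPM in Akita mice. The Akita mouse with the highest Lpl, MitoQ replicate 2 at 189 CPM, had 15.7 CPM of adipocyte markers without Car3, whereas the other 4 mice of its group had between 0.84 and 2.19 CPM. Akita water replicate 4 had more of these markers, 17.3 CPM, with Lpl at 68.6 CPM.

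The sum of 8 macrophage markers, from cells that also make LPL, was between 53.7 and 103 CPM in WT and between 55.1 and 72.6 CPM in Akita mice with MitoGamide (log2 difference -0.04, exact permutation p = 0.897). With MitoQ it was between 53.2 and 78.6 CPM in WT and between 35.9 and 51.2 CPM in Akita mice (log2 difference -0.53, exact permutation p = 0.00794, adjusted p = 0.0349). The median of its largest member, Csf1r, was 40.7 CPM in WT and 20.7 CPM in Akita mice with MitoQ. That of C1qb was 6.81 and 5.69 CPM, and only Cd68 had a higher median in Akita mice (1.25 and 1.43 CPM). The sum of the 8 proximal tubule markers was lower in Akita mice with MitoGamide, between 10850 and 13320 CPM against between 15530 and 17280 CPM (log2 difference -0.45, exact permutation p = 0.00794, adjusted p = 0.0349), and differed by -0.20 with MitoQ (exact permutation p = 0.230). Its members did not all go one way with MitoGamide: Lrp2, Slc34a1 and Slc27a2 hold most of the sum, the median of Slc7a13 was 438.5 CPM in WT and 170.5 CPM in Akita mice, and those of Cubn (1356 and 1379 CPM) and Slc22a6 (720.3 and 719.2 CPM) were close. Lrp2 and Slc27a2 also stand among the lipid genes below. The sum of collecting duct markers was higher in Akita mice, by 0.78 and 0.37 (exact permutation p = 0.00794 and adjusted p = 0.0349 in both). Here too the members differed: the median of Aqp2 was 38.6 CPM in WT and 106.8 CPM in Akita mice with MitoGamide, and that of Atp6v1g3 was 14.3 and 13.99 CPM. The part of these cell types in the difference of Lpl was not tested.

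**Figure D5:**
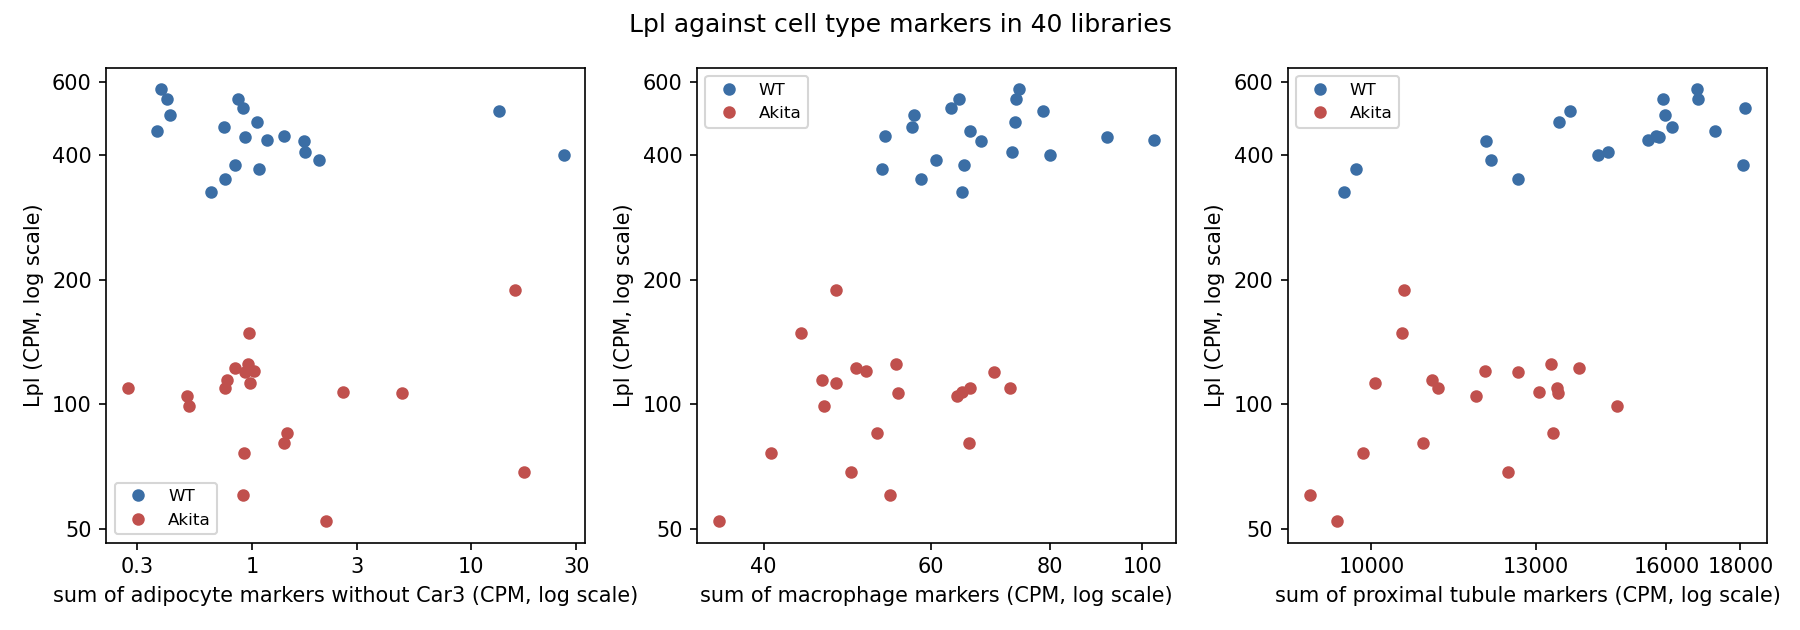
Level of Lpl (CPM, vertical axis, log scale) against the summed level of adipocyte markers without Car3, macrophage markers and proximal tubule markers (CPM, horizontal axes, log scale) in 40 libraries, 20 of WT and 20 of Akita mice. Adipocyte markers without Car3 range from 0.37 to 26.3 CPM in WT and from 0.27 to 17.3 CPM in Akita mice, and macrophage markers from 53.2 to 103 and from 35.9 to 72.6 CPM.

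The genes whose log2 level followed Lpl most closely over the 40 libraries were named by the highest and lowest Pearson correlation, as a description. They were Azgp1 (r = 0.96), Cyp4b1 (0.96), the pseudogene Gm6300 (0.96), Fmo5 (0.95) and Ggct (0.95), and at the other end Kynu (-0.94), Papln (-0.92) and Ugt1a10 (-0.91). Because genotype sets most of this pattern, the correlation was also taken after subtracting the mean of each group. It was then 0.79 for Azgp1, 0.78 for Cyp4b1 and 0.79 for Fmo5, whereas Gm6300 had 0.40, Kynu -0.44 and Ugt1a10 -0.24. Azgp1, a secreted glycoprotein that promotes lipid breakdown in fat, was at a mean of 81.6 CPM in WT and 23.4 CPM in Akita mice. Cyp4b1, a cytochrome P450, was at 2483 and 842.7 CPM. For Gpihbp1 the 2 closest genes were Tpm4 and the endothelial marker Pecam1 (0.87 each, and 0.67 and 0.66 within groups). They were Rnf123 and Tmem82 for Lmf1 (0.82 and 0.81), Lmbrd2 and Ankrd13c for Vldlr (0.97 each), Bnip3 and Ddb1 for Apob (0.95 and 0.94), Trf and C3 for Apoe (0.79 and 0.77), and Adhfe1 and Hsd17b12 for Mttp (0.88 each). All these correlations include the libraries that stood apart and were not taken without them. Vldlr, Apob and Mttp themselves had 0.86, 0.62 and 0.59 with the median Spearman correlation of the library.

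Among the 7 genes themselves, Lpl followed none of the others closely. Its correlations with them ranged from -0.40 (Gpihbp1) to 0.41 (Mttp) over the 40 libraries, which include the gap between genotypes. Within groups these were -0.02 and -0.06, and the range was from -0.48 (Apoe) to 0.38 (Vldlr). In the 31 libraries that did not stand apart, Lpl had -0.37 with Gpihbp1, -0.23 with Mttp, -0.37 with Apoe and 0.10 with Vldlr. Over the 40 libraries, Vldlr and Mttp had a correlation of 0.81, Gpihbp1 and Apob 0.77, and Vldlr and Apob 0.63. Within groups, Vldlr and Mttp had 0.62, which was 0.40 in the 31 libraries that did not stand apart. Vldlr and Apob had 0.76, which was 0.41 there, and Gpihbp1 and Apob had 0.52, which was 0.62 there.

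Around these genes, 66 further genes of lipoprotein and fatty acid handling were listed in 5 groups, with earlier results of these data known. Between genotypes with MitoGamide, 59 were tested, of which 12 were higher and 5 lower in Akita mice (28.8%, against 14.3% of all tested genes). The 17 calls fell to between 9 and 11 without Akita MitoGamide replicate 2 or 3 or WT MitoGamide replicate 2, 3 or 4, and to 10 with all 40 libraries in one fit. With MitoQ, 59 were tested and 1 was called (1.69%, against 0.557%). In the group of LPL activity and control, 13 genes including Lpl, Gpihbp1 and Lmf1 were tested with MitoGamide and the median log2 fold change was 0.31, against 0.01 over all genes. Beyond those 3, only Sel1l, which acts with LMF1 in the maturation of LPL, was called (-0.42, adjusted p = 0.0239 by edgeR), with 135 ± 20.4 CPM in WT and 98.5 ± 7.30 CPM in Akita mice. Angptl4, an inhibitor of LPL named here after its values were seen, differed by 0.70 (adjusted p = 0.168 by edgeR), and by 0.18 (adjusted p = 0.388 by edgeR) without Akita MitoGamide replicate 5. Apoc2, the activator of LPL, was too low to be tested.

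In the group of fatty acid uptake and lipid droplets, 6 of 13 genes were higher and 1 lower with MitoGamide, with a median of 0.67. Fabp3, a fatty acid binding protein of muscle and other tissues, was at 21.9 ± 3.35 CPM in WT and 37.6 ± 3.44 CPM in Akita mice (log2 fold change 0.80, adjusted p = 0.00121 by edgeR). Fabp4, a fatty acid binding protein of fat and capillary endothelium, was at 13.1 ± 3.47 and 29.0 ± 5.77 CPM (1.17, adjusted p = 0.00237). Mgll, which encodes monoglyceride lipase, was at 31.2 ± 8.79 and 59.2 ± 4.74 CPM (0.95, adjusted p = 0.00429), and it was the gene called with MitoQ as well, at 27.5 ± 2.49 and 50.6 ± 8.65 CPM (0.88, adjusted p = 0.00849 by edgeR). Slc27a2, a fatty acid transporter of the proximal tubule, was lower in Akita mice with MitoGamide (2692 ± 264 and 1922 ± 173 CPM, -0.45, adjusted p = 0.0244 by edgeR).

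Of 16 lipoprotein receptors and their partners, 3 were higher and 3 lower with MitoGamide, with a median of 0.14. Besides Vldlr, the lower genes were Cd36, a fatty acid and lipoprotein receptor (344 ± 38.7 CPM in WT and 179.5 ± 69.2 CPM in Akita mice, -0.90, adjusted p = 0.0278 by edgeR), and Lrp2, which encodes megalin, the endocytic receptor of the proximal tubule (6739 ± 434 and 4434 ± 565 CPM, -0.57, adjusted p = 0.0180). The higher genes included Lrp1, a large endocytic receptor, and Sort1, which encodes the sorting receptor sortilin (0.70 and 0.43). Lrp1 lost its call without Akita MitoGamide replicate 5 (0.61, adjusted p = 0.0619 by edgeR).

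Of 13 genes of apolipoprotein B assembly, 2 were higher and 1 lower with MitoGamide, with a median of -0.09. Tm6sf2, which takes part in lipidation of VLDL, was at 1.499 ± 0.29 CPM in WT and 4.13 ± 1.45 CPM in Akita mice (1.49, adjusted p = 0.00297 by edgeR), and A1cf, a cofactor of Apob mRNA editing, was lower (121 ± 5.57 and 86.2 ± 17.5 CPM, -0.46, adjusted p = 0.0242). Of 11 genes of apolipoprotein E, HDL and cholesterol efflux, Clu, or clusterin, was higher (138 ± 19.2 and 229.8 ± 53.3 CPM, 0.76, adjusted p = 0.00757 by edgeR), as was Apoa2 (0.96, adjusted p = 0.0273), with a median of 0.13.

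For the drugs against their vehicles, edgeR's test called 0 of the 58 to 60 further genes tested. At an unadjusted p under 0.05 there were 14 of 59 genes for MitoGamide in Akita mice (against 20.9% of all genes), 6 of 59 in WT mice (10.6%), 1 of 58 for MitoQ in Akita mice (1.96%) and 6 of 60 in WT mice (3.22%). DESeq2 called 5, 0, 0 and 0 of them, and 1069, 74, 0 and 2 of all genes. Between ethanol and water vehicle in Akita mice, 7 of 58 were higher and 0 lower (12.1%, against 12.7% of all tested genes) by edgeR. The 7 were 0 with the replicate block, without the libraries that stood apart, and without Akita ethanol replicate 1, 2, 3 or 5 or Akita water replicate 2, 3 or 5. They were 1 without Akita ethanol replicate 4, 14 without Akita water replicate 1 and 18 without Akita water replicate 4.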

How the data were processed

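Renal cortex RNA of 40 mice was depleted of ribosomal RNA and sequenced as single reads with a directional kit. The authors trimmed the reads with Skewer, quantified transcripts of GENCODE mouse release 25 (GRCm38) with kallisto 0.46.1 and summed them per gene in R 4.0.2, and the strand setting is not given in the sources used here. The deposited values are estimated counts per gene, held as whole numbers and used as deposited, for 55401 genes. Kallisto shares reads among overlapping or similar transcripts, so values of such genes carry that uncertainty.

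From these counts, edgeR 4.0.16 (R 4.3.3) was run per contrast on its own libraries with TMM scaling and the quasi-likelihood test. Genes needed a mean of 10 counts or more, with Benjamini-Hochberg adjustment over all tested genes and a call at an adjusted p under 0.05. Depth ranged from 9106654 to 24321424 counts per library, and standard errors come from the spread between mice. The 7 genes, gene lists and markers were chosen with earlier results of these data known. All 7 genes passed the filter in every contrast. Genes beyond the 7 were named by a rule of at most 3 called genes per list, contrast and direction with the smallest p. A gene that met this rule is not reported here. Marker sums were compared on log2 of CPM with an exact two-sided permutation test. Likeness used log2(CPM + 1). Alternatives were DESeq2 1.42.0, RLE scaling, both a stricter filter (10 counts or more in each library) and none, 1 joint fit over 40 libraries, a replicate block and leaving out each library. Leaving out the 9 libraries that stood apart (a median Spearman correlation under 0.96) and the adipocyte sum without Car3 were added after seeing the data. Over the 80 pairs of libraries within groups, the lowest chi-square per degree of freedom was 9.17, so that no pair differed by as little as sampling noise. Pairs across groups were not compared. Positions are from GENCODE release 21, also on GRCm38, which holds 99.5% of the gene identifiers.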

Additional observations from a re-analysis of the deposited data

Results flagged for a closer look

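In 56 screened groups of 5 mice (7 genes in 8 groups), 4 held a mouse whose gap to the nearest other, divided by the range of the group, was above Dixon's critical value of 0.71, where chance gives about 2.8. Lpl in WT MitoGamide replicate 3 was at 547.1 CPM, with the nearest mouse at 466.1 CPM. Gpihbp1 in WT MitoGamide replicate 5 was at 7.463 CPM, with the nearest at 4.622 CPM, and this mouse was the one whose Gpihbp1 overlapped the Akita mice with MitoGamide. Its summed endothelial markers, at 589.6 CPM, and macrophage markers, at 103 CPM, were the highest of the WT mice. Their part in its Gpihbp1 value was not tested. Lmf1 in WT MitoQ replicate 3, a library that stood apart, was at 20.33 CPM, with the nearest at 16.01 CPM. Apoe in WT water replicate 1 was at 127.3 CPM, with the nearest at 60.01 CPM, and the summed hepatocyte markers of this library, at 468 CPM, were the highest of the 40. Its adipocyte markers without Car3, at 26.3 CPM, were also the highest of the 40, and its macrophage markers, at 80.02 CPM, the highest of its group. The part of any of these in the Apoe value was not tested.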

How the results depend on the processing

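The genotype difference of Lpl kept its direction in all alternatives and was called in all of them with MitoGamide, and with MitoQ in all but 1 of the fits without 1 library, where it lay between -2.05 and -1.65. On library totals without TMM, the 20 Akita mice lay between 45.6 and 184.5 CPM of Lpl and the 20 WT mice between 186.2 and 589 CPM, so that they still did not overlap but nearly met. Counts of the 7 genes called moved as follows. With all 40 libraries in one fit, 1 was called between genotypes on ethanol vehicle, 2 with MitoGamide and 2 between vehicles in WT mice. With MitoGamide, 5 were called between genotypes under DESeq2, RLE, the stricter filter and without the library that stood apart, Mttp being the fifth. DESeq2 called 1 for MitoGamide in Akita mice, 2 between vehicles in Akita mice and 1 in WT mice. Without the libraries that stood apart, 1 (Apoe, with only 2 Akita water mice left) was called for MitoQ in Akita mice, where 30 of all genes were called. Without 1 library, the counts ranged from 2 to 4 between genotypes on ethanol vehicle, 2 to 5 with MitoGamide, 0 to 1 with MitoQ, and 0 to 3 and 0 to 4 between vehicles in Akita and WT mice.

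Reversals were of values near 0 or resting on the libraries that stood apart. Apoe between genotypes on water vehicle was -0.0074 with DESeq2, -0.0066 with RLE, -0.0079 without a filter, -3.9e-05 with the replicate block, -0.0202 without the libraries that stood apart and -0.146 to 0.40 without 1 library. Vldlr between genotypes with MitoQ was 0.00088 with DESeq2, 0.00046 with RLE, 0.016 without a filter, 0.013 with at least 10 counts in every library, 0.042 with the replicate block and -0.158 to 0.0761 without 1 library, where Apoe ranged from -0.10 to 0.21 and Lmf1 from -0.033 to 0.0979. For MitoGamide, Lpl in Akita mice was -0.00043 with at least 10 counts in every library, and -0.0441 to 0.117 without 1 library. In WT mice Lpl was -0.0544 to 0.0991 and Gpihbp1 -0.22 to 0.11 without 1 library, and Gpihbp1 was -0.016 with the replicate block. The difference of the MitoGamide effect on Lpl between genotypes was -0.017 with at least 10 counts in every library, -0.0063 with all 40 libraries, -0.015 with the replicate block and -0.085 to 0.119 without 1 library. Without the libraries that stood apart, Apob between vehicles was -0.067 in Akita and -0.13 in WT mice, and Lpl -0.0197 in WT mice. The cause was not tested.

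Over all genes, calls on ethanol vehicle fell from 2910 to 844 with all 40 libraries in one fit. On water vehicle they went from 101 to 354 with DESeq2, 547 with all 40 libraries, 32 with the replicate block and 313 without the libraries that stood apart, and with MitoQ from 101 to 415, 308, 48 and 256. For MitoGamide in Akita mice they went from 214 to 1069, 32, 0 and 802, and in WT mice from 0 to 74 with DESeq2. Between vehicles they went from 2283 to 4264 with DESeq2, 1352 without a filter, 0 with the replicate block and 6 without the libraries that stood apart in Akita mice, and from 0 to 725 with DESeq2 and 1567 with all 40 libraries in WT mice. Without 1 library they ranged from 1 to 6496 between vehicles in Akita mice, 0 to 5216 in WT mice, 0 to 802 for MitoGamide in Akita mice, 1248 to 2822 between genotypes with MitoGamide, 35 to 270 with MitoQ and 32 to 94 on water vehicle. Samples with the same replicate number did not deviate together as a rule (correlations of -0.53 to 0.74), so the numbers were not taken to pair the mice. The correlation reached 0.74 between Akita MitoQ and Akita water, 0.67 between WT MitoQ and WT water and 0.56 between Akita and WT water. In the same comparisons the lowest were -0.19, -0.35 and -0.53. With the replicate block, Lpl between genotypes with MitoQ was -1.94. Low counts limit Gpihbp1 most, at 16 counts in WT MitoQ replicate 3.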
